A study of Mus musculus with 18 samples.

Results

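This account compares ribosome footprints of primary mouse astrocytes after 48 h with those after 24 h of treatment with TNFα and IL-1β. It draws on 6 of the 18 libraries of the series, the 3 footprint batches at each time, and covers all 12205 genes for which the authors deposited values. For each gene the footprint difference is the deposited log2 fold change of 48 h over untreated cells minus that of 24 h over untreated cells, so that the shared untreated libraries cancel out. A positive difference means more footprints at 48 h.

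The cells were wild-type C57BL astrocytes from newborn mice (P0 to P2) of pooled sexes, seeded from frozen stocks. Cells of the 48 h group were cultured for 72 h and those of the 24 h group for 96 h before TNFα at 20 ng/ml was added together with IL-1β at 0.25 ng/ml, and untreated cells were kept for 120 h without cytokine. Total time in culture was therefore equal, but the age of the culture at addition differed between the treated groups and cannot be told apart from the length of treatment. Each group had 3 batches, named A, B and C. Part of each lysate was digested with RNase I for footprints of 26 to 34 nt and the undigested part gave the RNA libraries, so footprints and RNA of a batch came from the same cultures. The authors deposited a single value per gene and comparison, with the batches already combined. There is thus no replicate spread, depth or test behind any difference given here, and a gene is counted as higher or lower only where the difference reached 1 on the log2 scale, a 2-fold change. Levels were not analysed here, so the purity of the astrocytes could not be checked against marker levels, and in bulk samples fewer cells of a type and less RNA per cell cannot be told apart.

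A ribosome footprint is the stretch of mRNA that a ribosome shields from nuclease, and the number of footprints on a gene follows both how much of its mRNA there is and how many ribosomes each mRNA carries. TNFα and IL-1β act on astrocytes mainly through NF-kB, which switches on chemokines, cytokines and acute phase genes. Interferon-stimulated genes are instead driven by complexes of STAT and IRF proteins, which bind a promoter element called the ISRE, and these genes code for antiviral proteins that block viral replication or guide immune attack.

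Few genes lay far apart between the times. Footprints of 89 genes (0.729%) were higher and of 130 genes (1.07%) lower at 48 h, together 219 genes (1.79%). The central 95% of genes lay between -0.66 and 0.61, with a median of 0.00. In RNA, 77 genes (0.631%) were higher and 113 (0.926%) lower, together 190 (1.56%). Of the 219 genes past 1 in footprints, 206 (94.1%) had the same sign in RNA, against 64.7% of the genes within 1. Among the 130 lower genes, RNA was also lower by at least 0.5 in 104, within 0.5 in 24 and higher by at least 0.5 in 2. Among the 89 higher genes, it was higher by at least 0.5 in 68, within 0.5 in 20 and lower by at least 0.5 in 1. Since both kinds of library came from the same lysates, this is a second readout of the same cultures and not a second experiment.

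**Figure D1:**
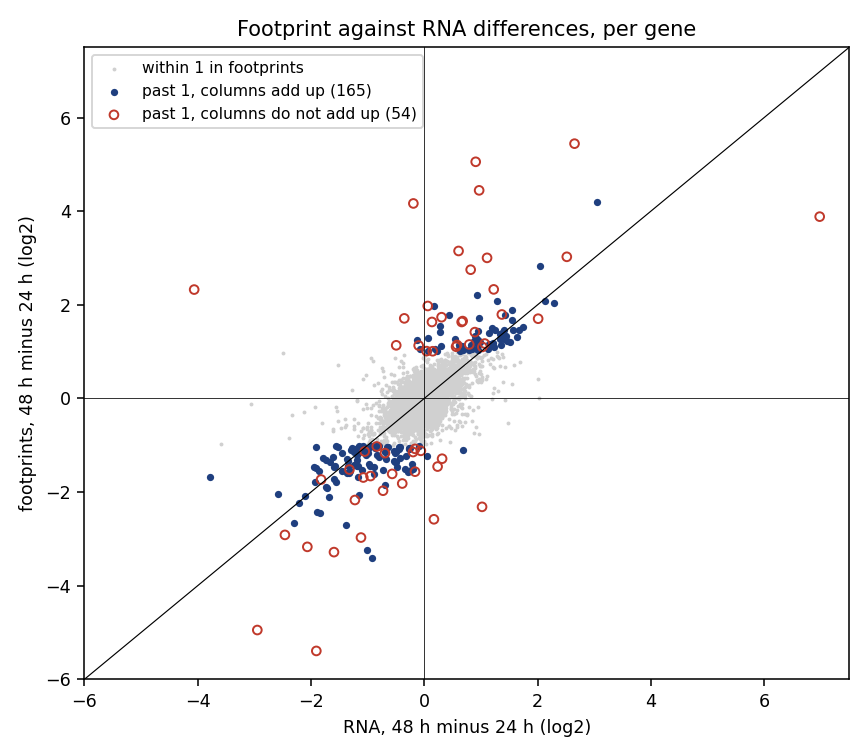
Each point is a gene, with the RNA difference (48 h minus 24 h, log2) on the horizontal axis and the footprint difference (48 h minus 24 h, log2) on the vertical axis; the slanted line marks equal differences. Of the 219 genes past 1 in footprints, open circles mark the 54 whose deposited columns do not add up within 0.5, and 206 of the 219 lie on the same side of 0 in RNA.

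The genes that differed between the times mostly had a mean of both times at least 1 away from untreated cells. At 24 h, 961 genes (7.87%) had at least 1 more and 1062 genes (8.7%) at least 1 less on the log2 scale than untreated cells; at 48 h these were 992 genes (8.13%) and 1063 genes (8.71%). Of the 130 genes lower at 48 h, 62 had a mean of both times of at least 1, which are induced genes, and 55 a mean of at most -1, which are reduced genes. For the 89 higher genes these counts were 54 and 27. Among genes whose mean lay between -1 and 1, only 0.206% of 10191 were past 1 between the times. That share was 7.83% of the 702 genes with a mean of 1 to 3, 21.4% of the 168 genes with a mean of 3 to 5 and 27.8% of the 90 genes with a mean above 5. On the reduced side it was 5.27% of the 967 genes with a mean of -3 to -1 and 35.6% of the 87 genes with a mean below -3. The mean is made of the same 2 values as the difference, so a gene can have a high or low mean through 1 time alone. Among the 89 higher genes, 12 were at least 1 above untreated cells at 48 h and under 0.5 at 24 h. Direction against untreated cells was nearly always kept: 839 genes were at least 1 higher and 884 at least 1 lower at both times. A single gene went from at least 1 above to at least 1 below untreated cells, Cilp2, a matrix protein of cartilage, with 1.31 at 24 h and -1.60 at 48 h in the authors' deposited table.

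**Figure D2:**
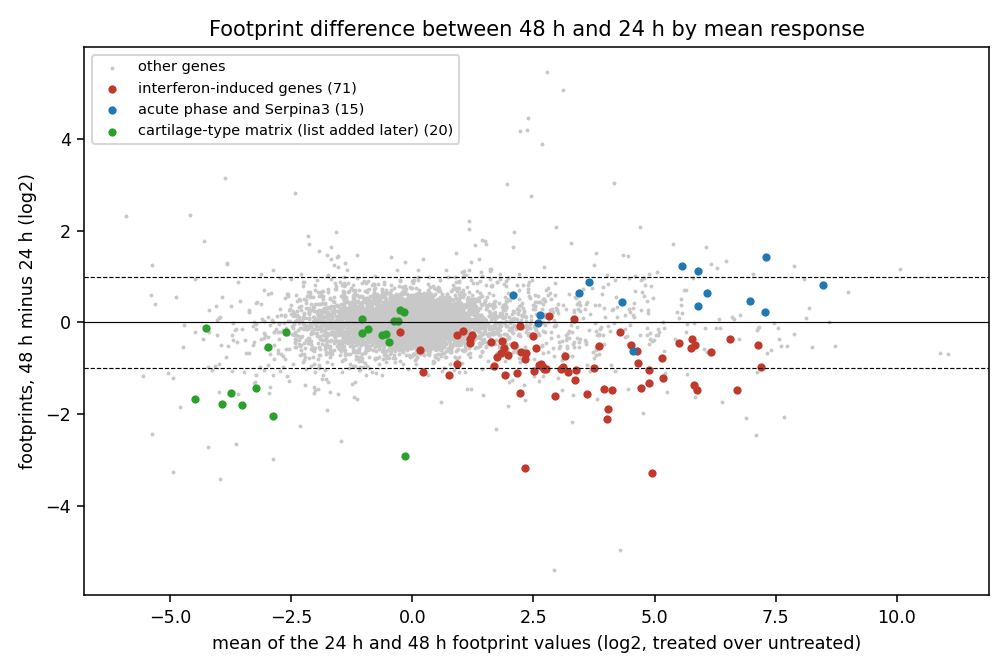
Each point is a gene, with the mean of its 24 h and 48 h footprint values (log2, treated over untreated) on the horizontal axis and the difference of 48 h minus 24 h (log2) on the vertical axis; dashed lines mark 1 and -1. The 71 interferon-induced genes lie mostly below 0 at positive means, and 13 of the 15 acute phase and Serpina3 genes lie above 0.

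Genes induced by interferons were lower at 48 h as a group. Of 71 measured members of the lists of interferon-inducible GTPases and antiviral effectors, 27 were lower and none higher, 69 lay below 0, and the median difference was -0.89 in footprints and -0.82 in RNA. All genes had a median of 0.00, with 1.07% lower. These 27 genes made up 20.8% of the 130 lower genes, and RNA was lower by at least 0.5 in each of them. The translation efficiency (footprints over RNA) of the 71 genes had a median difference of 0.01. Most remained induced: 68 of the 71 were at least 1 above untreated cells at 24 h (all genes 7.87%) and 62 at 48 h (all genes 8.13%).

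Among the antiviral effectors, 21 of 54 were lower and the median was -0.84. Isg15, a ubiquitin-like protein that is attached to other proteins, was at 5.06 at 24 h and 2.96 at 48 h in the authors' deposited table, a difference of -2.10 or 4.29-fold. Ifi44 was at 4.99 and 3.10, and Ifit3, of a family that binds foreign RNA, at 3.74 and 2.14 in the authors' deposited table. All 3 stayed well above untreated cells. The 2'-5' oligoadenylate synthetases, which switch on RNase L when they meet double-stranded RNA, differed among themselves: Oas3 gave -1.48, Oas2 -1.45 and Oas1a -0.21, although the RNA of Oas1a differed by -0.93. Ifit2 was the member that came nearest to untreated cells among the Ifit genes named here, from 1.33 at 24 h to 0.19 at 48 h in the authors' deposited table. The 2 effectors above 0 were Ifitm1 (0.15), which hinders viral entry, and Ifi204 (0.08), a DNA-binding protein. Mx1 and Mx2, dynamin-like GTPases that block viruses, differed by -3.17 and -1.53. RefSeq annotates both, as well as Oas1b and Cxcl11, as transcribed pseudogenes in the C57BL/6J reference, so that their footprints need not stand for a full protein.

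The interferon-inducible GTPases attack the vacuoles in which microbes live. All 17 measured lay below 0, with a median of -0.90, and 6 were lower by at least 1. Gbp5 was at 7.44 at 24 h and 5.98 at 48 h in the authors' deposited table, and Gbp3 (-1.33), Gbp2 (-1.20), Gm12250 (-1.36) and Igtp (-1.02) also passed 1. Iigp1, an immunity-related GTPase, had the smallest difference at -0.36. The Gbp genes lie in 2 clusters (RefSeq, GRCm38.p6). On chromosome 3 the 4 measured genes, Gbp5, Gbp7, Gbp3 and Gbp2, between 142496934 and 142638008, had differences from -1.46 to -0.96. On chromosome 5 the 5 measured genes, Gbp8, Gbp9, Gbp4, Gbp10 and Gbp6, between 105012513 and 105295871, had differences from -0.98 to -0.44. Members of the Gbp, Ifit, Oas, Serpina3 and Ces1 families are similar in sequence, and how reads that match several copies were counted is unknown, so single members are uncertain.

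The list of regulators of this response lay closer to 0 than its targets, with a median of 0.08 and a mean of -0.11. This list also holds SOCS genes and receptors, and some STAT and IRF members were lower than its median. Of 25 STAT, IRF and SOCS genes and receptors, only Irf7, which amplifies interferon production, was lower by 1 (all genes 1.07%), from 3.26 to 1.98 in the authors' deposited table. Stat2, a subunit of the complex that binds interferon promoters, differed by -0.75, from 1.24 at 24 h to 0.498 at 48 h in the authors' deposited table. That difference is near the median of the antiviral effectors (-0.84). Irf9, its partner, and Irf1, which TNFα and interferon gamma also induce, differed by -0.42 and -0.42. Jak1 and Ifngr1, a kinase and a receptor chain upstream of STAT proteins, lay at 0.27 and 0.37.

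**Figure D3:**
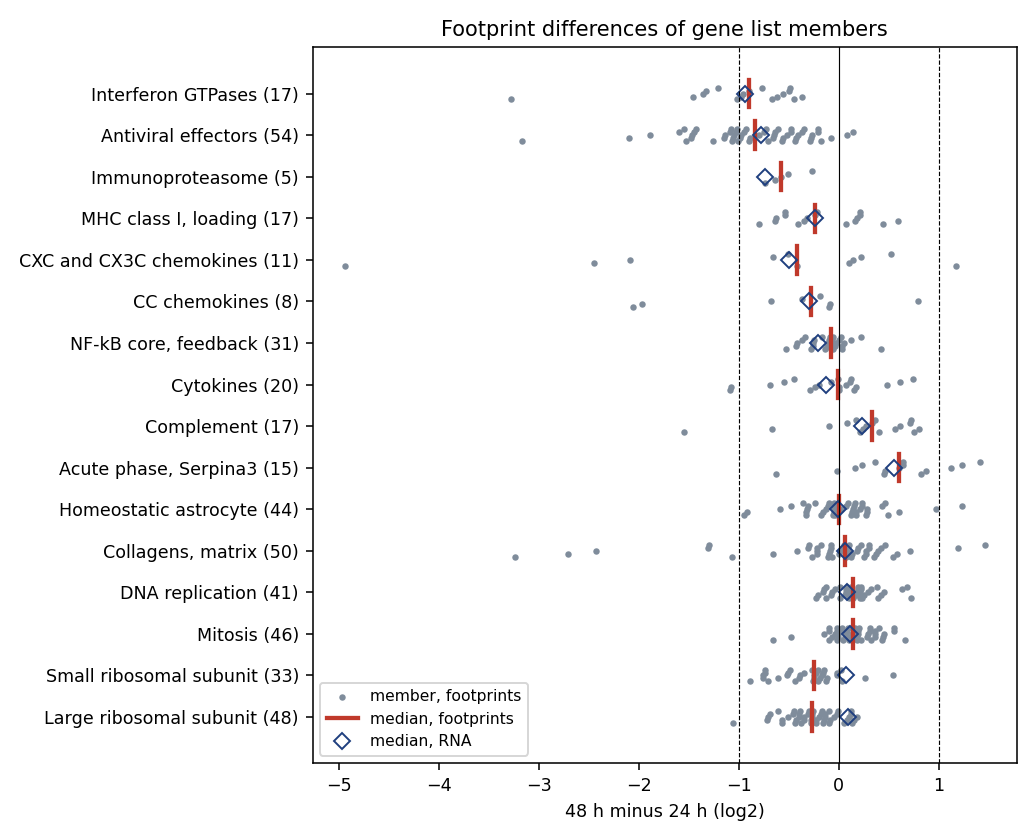
Each grey point is a measured gene of the list named on the vertical axis (number of genes in parentheses), at its footprint difference of 48 h minus 24 h (log2, horizontal axis); red bars are list medians in footprints and open diamonds list medians in RNA, and dashed lines mark 1 and -1. The medians of the interferon lists lie at -0.90 and -0.84, that of the acute phase list at 0.60, and of the 16 lists drawn the 2 ribosomal lists are those where the footprint bar and the RNA diamond lie on opposite sides of 0.

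The ISRE letters were found in a larger share of the promoters of lower genes than of all genes. A promoter was taken as the 300 bases from 250 before to 50 after a listed start of the gene (RefSeq, GRCm38.p6). Such a start need not be the outer end of the gene, and a gene with several promoters counted if any held a match. The ISRE letters GAAA, any 2 bases and GAAA again occurred on either strand in 3.78% of 9375 measured genes with a promoter in the table. They occurred in 23.7% of 97 genes lower at 48 h and in 5.08% of 59 genes higher at 48 h. Within induced genes (mean of both times at least 1), the shares were 38.3% of 47 lower genes, 8.42% of 606 genes within 1 and 3.03% of 33 higher genes. The STAT element GAS, TTCNNNGAA, was found in 8.23% of all genes, 16.5% of the lower and 8.47% of the higher genes, and an NF-kB element, GGGA, any base and TTTCC, in 0.523%, 3.09% and 0% of them. Within induced genes, GAS shares were alike, with 12.8% of lower genes, 11.1% of genes within 1 and 12.1% of higher genes. The NF-kB shares there were 6.38%, 2.31% and 0%. These are letter matches, which show no binding.
The stretches below show the matches in 6 lower genes and, for comparison, in Saa3, whose difference lay above 0 but did not reach 1. Each reads 5′ to 3′ on the strand of the gene and capitals mark the match or its reverse complement. None of them overlaps a match of another of the searched elements.
Tgtp2 (chr11:49064233-49064322, minus strand): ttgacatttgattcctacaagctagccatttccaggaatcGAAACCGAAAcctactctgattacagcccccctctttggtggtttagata
Isg15 (chr4:156200847-156200936, minus strand): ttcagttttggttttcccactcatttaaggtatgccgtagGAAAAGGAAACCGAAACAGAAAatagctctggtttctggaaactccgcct
Cxcl10 (chr5:92349053-92349139, minus strand): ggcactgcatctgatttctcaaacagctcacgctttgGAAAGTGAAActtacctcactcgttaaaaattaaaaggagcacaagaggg
Apol9b (chr15:77728995-77729084, plus strand): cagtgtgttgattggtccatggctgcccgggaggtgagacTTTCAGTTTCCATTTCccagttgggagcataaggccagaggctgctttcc
Ifit3 (chr19:34583333-34583422, plus strand): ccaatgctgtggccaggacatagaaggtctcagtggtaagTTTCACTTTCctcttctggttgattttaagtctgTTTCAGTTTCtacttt
Tmem140 (chr6:34863043-34863132, plus strand): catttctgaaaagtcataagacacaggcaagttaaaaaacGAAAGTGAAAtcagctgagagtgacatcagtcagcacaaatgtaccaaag
Saa3 (chr7:46715752-46715841, minus strand): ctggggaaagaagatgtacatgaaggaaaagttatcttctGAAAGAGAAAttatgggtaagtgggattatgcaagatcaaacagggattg
The Isg15 run holds 3 overlapping matches and the Apol9b run 2. Footprint differences of these genes were -3.28 for Tgtp2, -2.10 for Isg15, -2.08 for Cxcl10, -1.69 for Apol9b, -1.60 for Ifit3, -1.57 for Tmem140 and 0.82 for Saa3.

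Of 19 chemokines, 5 were lower (all genes 1.07%) and 1 was higher (all genes 0.729%), and 3 of the 5 have columns that add up within 0.5. The 3 ligands of CXCR3, the receptor that draws activated T cells, were all lower: Cxcl10 was at 7.94 at 24 h and 5.85 at 48 h in the authors' deposited table, and Cxcl11 at 8.33 and 5.88. Cxcl9 was listed at 6.77 and 1.82 in the authors' deposited table, but its deposited translation efficiency does not match its other columns. Ccl5, which also draws T cells, was at 8.70 and 6.64, a 4.16-fold lower value, in the authors' deposited table. Ccl17 was lower as well. Cxcl16, which also draws T cells, differed by 0.22. The neutrophil ligands Cxcl1 and Cxcl5 differed by -0.51 and 0.11, and the monocyte ligands Ccl2 and Ccl7 by -0.36 and -0.10. Cxcl12, which retains stem and immune cells in tissue, differed by 0.53, Ccl9 by 0.79 and Cxcl15, a lung chemokine, by 1.17. Of the 19 chemokines, 16 were at least 1 above untreated cells at each time (all genes 7.87% at 24 h and 8.13% at 48 h).

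The NF-kB system itself lay close to 0, with most genes slightly below it. None of its 31 measured core and feedback genes was past 1. In footprints 23 of them lay below 0 (median -0.08), and in RNA 26 did (median -0.20). Nfkbia, the inhibitor that NF-kB induces to switch itself off, differed by -0.08 and Tnfaip3, the A20 brake, by -0.27. Among 20 cytokines, only Csf3 (-1.09), the granulocyte growth factor, and Il18 (-1.08) were lower (all genes 1.07%), and Il6 differed by -0.20. Il33, an alarm signal held in the nucleus, lay at 0.74. Of 12 enzymes for nitric oxide, prostaglandins and itaconate, Ptgds, which makes prostaglandin D, was lower at -1.09 (all genes 1.07% lower), and Nos2 and Ptgs2 differed by -0.51 and -0.38. Antigen presentation lay between these groups: all 5 immunoproteasome genes were below 0 (median -0.57, with Psmb8 at -0.74), whereas of 17 MHC class I and peptide loading genes 10 lay below 0 and none was past 1. Within that list H2-T23 was at -0.80, while the classical chains H2-D1 and H2-K1 were at 0.59 and 0.44 in footprints and 0.04 and 0.01 in RNA. Rebuilt from RNA and translation efficiency, the footprint difference of H2-D1 was 0.39. The uncertainty of single members given above for similar gene families holds for these genes too.

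Acute phase genes lay above 0 as a group. Of 15 measured acute phase and Serpina3 genes, 3 were higher and none lower, 13 lay above 0, and the median was 0.60 in footprints and 0.56 in RNA. All genes had 0.729% higher. Saa2, a serum amyloid protein, was at 6.60 at 24 h and 8.01 at 48 h in the authors' deposited table, 2.66-fold more. Saa3 was at 8.06 and 8.88 in the same authors' deposited table; both amyloid genes belong to the 90 genes with a mean above 5. Serpina3g, a protease inhibitor, differed by 1.23, Hp, haptoglobin, which binds free haemoglobin, by 1.12, and Cp, the copper protein ceruloplasmin, by 0.88. Lcn2, which withholds iron from bacteria, was nearly level at 0.23, and Ptx3, a pentraxin that marks microbes, was the lowest of the list at -0.63. Complement lay above 0 in 14 of 17 genes, none of them past 1. C3, the central component, differed by 0.71, C1s1 by 0.72 and Cd55, which breaks up complement enzymes, by 0.75. Cfb, which starts the alternative pathway, lay at -0.66, and Vtn, vitronectin, was the only lower gene of the list at -1.55 (all genes 1.07% lower).

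**Figure D4:**
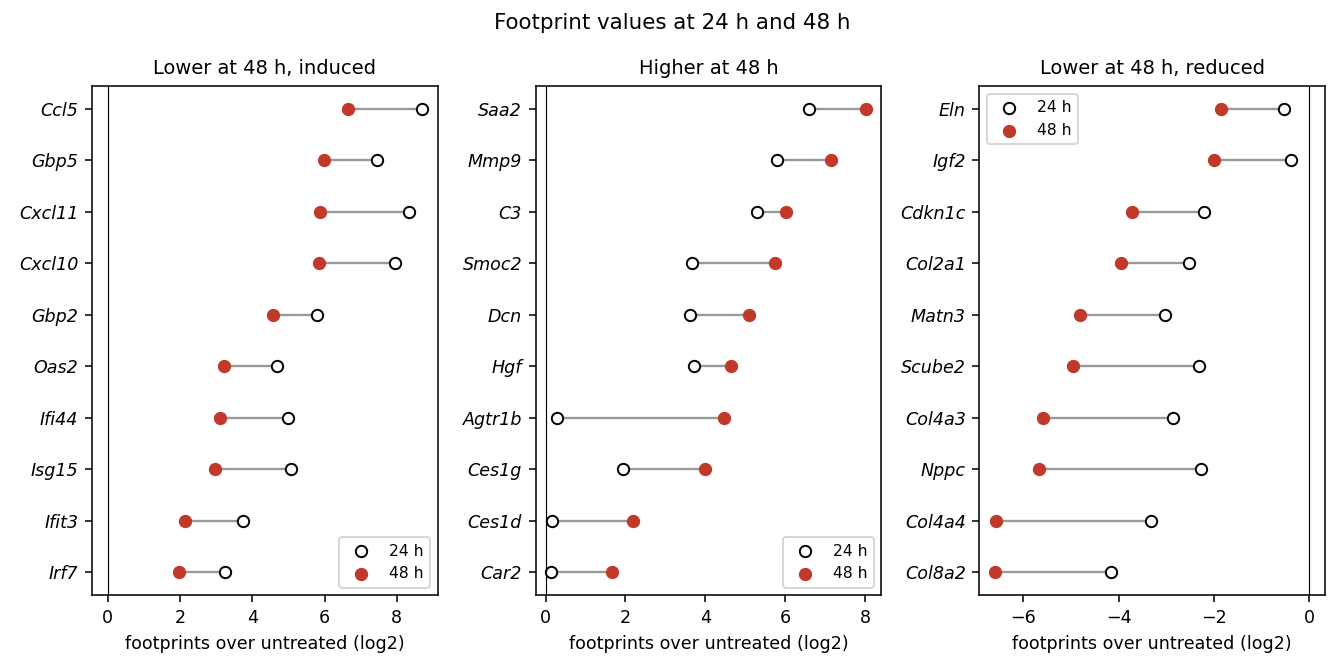
Open circles are footprint values at 24 h and filled circles at 48 h (log2, treated over untreated, horizontal axis) for 30 named genes in 3 groups, induced and lower at 48 h, higher at 48 h, and reduced and lower at 48 h; each circle is a single deposited value without error. Hgf and C3 are shown although their differences of 0.92 and 0.71 did not reach 1.

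Footprints of 23 genes were at least 1 above untreated cells at 48 h and under 0.5 at 24 h, and RNA had the same sign of difference in 22 of them. In some of them RNA was already well above untreated cells at 24 h. Wfdc17 and Lilrb4a, which had the highest differences (5.44 and 4.45), and Ibsp (4.17) have columns that do not add up and are described further on. Agtr1b, a receptor for angiotensin II, had the highest difference among those whose columns add up within 0.5 (4.19): footprints were listed at 0.28 at 24 h and 4.46 at 48 h in the authors' deposited table, and RNA at 2.48 and 5.52. Gpr158, a G protein-coupled receptor, differed by 2.21, Cacng5, an accessory subunit of glutamate receptors, by 1.68, and Car2, a carbonic anhydrase, by 1.52; RNA of these 3 genes at 24 h was at 0.29, 0.13 and 0.26 in the authors' deposited table. Ces1d, a carboxylesterase that cleaves lipids and drugs, was also in this class, at 0.15 and 2.18 in the authors' deposited table. Its neighbours Ces1f and Ces1g, which lie with it on chromosome 8 between 93166072 and 93337209 (GRCm38.p6), were already induced at 24 h (2.65 and 1.93 in the authors' deposited table), and the 3 genes differed by 2.03, 3.03 and 2.07.

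Other genes were already induced at 24 h and higher still at 48 h. Smoc2, a matrix protein related to SPARC, was at 3.67 and 5.74 in the authors' deposited table, and Dcn, decorin, which binds collagen fibrils and growth factors, at 3.62 and 5.08. Mmp9, a gelatinase, was at 5.79 and 7.14 in the authors' deposited table. Mmp3, which cuts a wide range of matrix proteins, differed by only 0.16. Tnfrsf9, a costimulatory TNF receptor, differed by 1.28, Angptl4, an inhibitor of lipoprotein lipase, by 1.44, and Hgf, hepatocyte growth factor, by 0.92.

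The reverse course, induced at 24 h and back under 0.5 at 48 h, held for 23 genes. Among them were Ifit2, Fgl2, a fibrinogen-like immune regulator (1.37 and 0.34 in the authors' deposited table), and Rarres2, the precursor of the attractant chemerin (1.94 and 0.49). Footprints of 17 genes were reduced at 24 h and back above -0.5 at 48 h, among them Slitrk3, a synaptic adhesion protein (-1.87 and -0.40 in the authors' deposited table), and Frzb, a secreted Wnt antagonist (-1.13 and -0.29). Sertad4 lay below untreated cells at both times, with -2.56 at 24 h and -0.59 at 48 h in the authors' deposited table, and its RNA differed by 0.18.

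The lowest difference among genes whose columns add up within 0.5 was that of Nppc (-3.40). This gene, the precursor of C-type natriuretic peptide, a growth signal of cartilage, was at -2.27 at 24 h and -5.67 at 48 h in the authors' deposited table, while its RNA differed by only -0.92. Col4a3 and Col4a4, basement membrane collagens transcribed from neighbouring starts on chromosome 1 (82586921 to 82722059 and 82448419 to 82587034, GRCm38.p6), differed by -2.71 and -3.24. The other Col4 pairs were level, with Col4a1 at 0.01, Col4a2 at 0.09, Col4a5 at -0.08 and Col4a6 at 0.25. Of 50 collagen and matrix genes 6 were lower (all genes 1.07%) and 2 higher (all genes 0.729%), while 28 lay above 0 and the median was 0.06 (mean -0.12). The lower ones included Col8a2 (-2.43), Eln, elastin (-1.31), Fbln5, which helps assemble elastic fibres (-1.30), and Postn, periostin (-1.07).

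Lists of cartilage-type matrix and imprinted growth genes were added after the values were seen, and their counts are a description of genes picked partly for these values. Of 20 measured cartilage-type genes 7 were lower (all genes 1.07%), among them Matn3 (-1.78), Col2a1, the main cartilage collagen (-1.43), and Omd, a keratan sulphate proteoglycan (-1.54). Of 14 measured imprinted genes 4 were lower (all genes 1.07%), and the median of the 14 of -0.49 became 0.0089 with columns adding up within 0.1. The 4 lower genes were H19, a non-coding RNA (-2.97), its neighbour Igf2, a fetal growth factor (-1.62), Cdkn1c, a cell cycle inhibitor (-1.53), and Dlk1, a Notch-like regulator of differentiation (-1.47). Igf2 was nearly level at 24 h (-0.39) and reduced at 48 h (-2.01) in the authors' deposited table. Scube2, which helps release Hedgehog ligands, and Gli1, a transcription factor and target of that pathway, differed by -2.65 and -1.27.

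Ribosomal protein genes lay lower in footprints than in RNA. Of 81 genes, 69 lay below 0 in footprints, and the median was -0.26 while that of their RNA was 0.09. In 72 of the 81 (88.9%) the footprint difference lay below the RNA difference, against 48.6% of all genes, and the median difference in translation efficiency was -0.39. Small and large subunit proteins were alike, with medians of -0.24 and -0.26. At 24 h 15 of the 81 were at least 1 above untreated cells (all genes 7.87%), and at 48 h 5 were (all genes 8.13%). Single differences were small: only Rpl23a passed 1, from 1.15 to 0.09 in the authors' deposited table, and Rps27 lay at -0.76 with RNA at 0.23. Rps10 (0.26) was among the 12 that lay above 0. A set of 16 small-subunit genes that the authors deposited, chosen by the study on these samples, had a median of -0.04 in footprints and -0.05 in RNA. This set did not show the offset: footprints lay below RNA in 7 of the 16 (43.8%), and the median difference in translation efficiency was 0.06. The set is not a part of the small-subunit list above, however. Translation efficiency differences lay above 0 in 8 of its 16 genes but in only 3 of the 33 genes of that list. The set therefore holds other genes, and it does not test the offset of the 81.

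Other translation genes lay nearer to 0. Of 45 initiation and elongation factors 31 were below 0, with a median of -0.07 and RNA at 0.03; Eif1, which guides start codon choice, was the lowest at -0.59. The 9 measured genes of the mitochondrial genome, which are read by separate ribosomes inside mitochondria, all had a footprint difference below their RNA difference, with medians of -0.12 and 0.31. The 77 nuclear genes of oxidative phosphorylation had a median of -0.05. Footprint and RNA libraries were made by different kits and scaled by steps that the labels do not state, and the part of these in the offset between footprints and RNA was not tested.

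**Figure D5:**
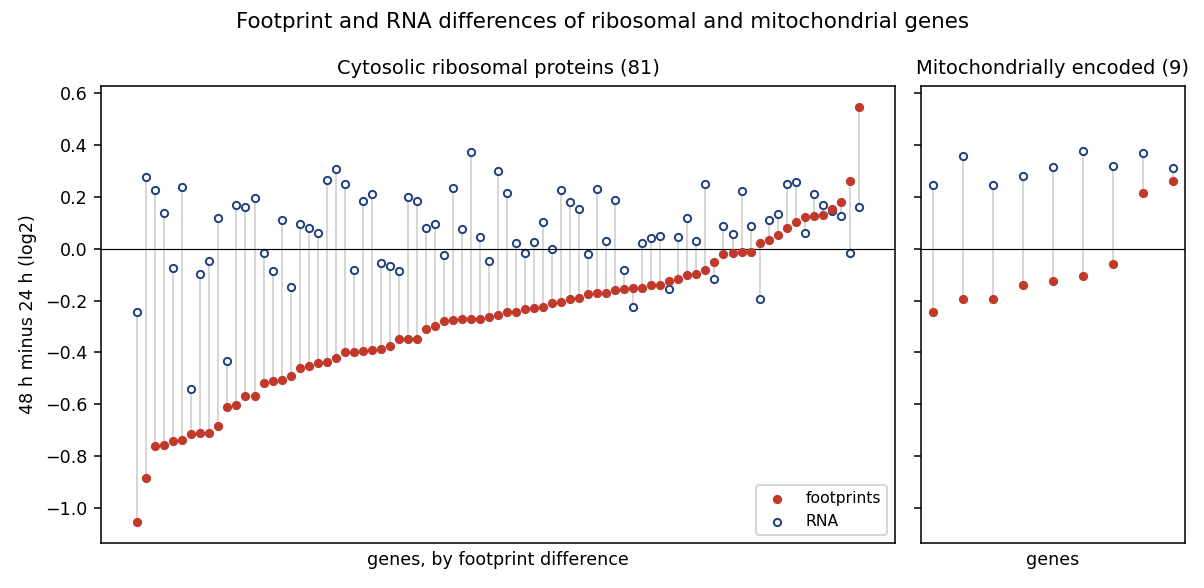
Footprint differences (filled) and RNA differences (open) of 48 h minus 24 h (log2, vertical axis) for 81 cytosolic ribosomal protein genes and 9 mitochondrially encoded genes, ordered by footprint difference. Footprint points lie below RNA points in 72 of the 81 and in 9 of the 9 genes.

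Proliferation genes lay below untreated cells at both times, with medians of -0.79 at 24 h and -0.57 at 48 h for DNA replication and -1.78 and -1.60 for mitosis in the authors' deposited table. Between the times, of 87 DNA replication and mitosis genes 65 lay above 0 and none was past 1, with a median of 0.14 in footprints and 0.10 in RNA. Dna2 is outside these lists but in the DNA replication set that the authors deposited. It was higher at 1.55, the only such gene of the 34 in that set (all genes 0.729%), with RNA at 0.27. Tk1, thymidine kinase, was at -1.95 at 24 h and -1.23 at 48 h in the authors' deposited table, and Cdt1, which licenses replication origins, at -1.65 and -0.97. Aurkb, a mitotic kinase, went the other way with -0.66. Of 46 mitosis genes 39 were at least 1 below untreated cells at both times (884 of all 12205 genes). Cholesterol and lipid synthesis genes lay below 0 in 27 of 33, with a median of -0.17 and the lowest value at Fdps (-0.99), an enzyme of isoprenoid synthesis.

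Genes of resting astrocytes did not shift as a group. Of 44, 22 lay above and 22 below 0, with a median of 0.00. Slco1c1, a thyroid hormone transporter, was higher at 1.24 but stayed far below untreated cells, at -4.76 at 48 h in the authors' deposited table. Kcnj10, the potassium channel Kir4.1, differed by -0.92. Gfap, the astrocyte intermediate filament, Aqp4, the water channel, and Slc1a2, the glutamate transporter, differed by -0.05, -0.18 and 0.24. Published lists of reactive astrocyte genes had medians of 0.23 (13 pan-reactive genes), -0.24 (10 A1 genes) and 0.06 (12 A2 genes). With only columns that add up within 0.1, the pan-reactive median was -0.17 and the A1 median -0.45, and the mean of the A2 list was -0.072. The A1 list shares members with the interferon-inducible and MHC class I lists.

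Only 6 of 24 microglia and macrophage markers had values: 5 lay above 0 and 2 were higher by 1 (all genes 0.729%), with a median of 0.40. Cd68, a lysosomal protein, differed by -0.43, Tmem119 by 0.31 and Lyz2, lysozyme, by 0.49. The 2 higher genes were Wfdc17 and Adgre1, a macrophage surface receptor, whose columns do not add up. Adgre1 was listed at 0.73 at 24 h and 4.62 at 48 h in footprints and at 0.57 and 7.55 in RNA in the authors' deposited table. The part of microglia or macrophages in the differences was not tested. Medians were 0.07 for 7 oligodendrocyte lineage markers, 0.16 for 8 neuronal, 0.08 for 6 endothelial, 0.09 for 13 fibroblast and pericyte and -0.20 for 10 ependymal markers. Of the neuronal markers 1 was lower (all genes 1.07%), Sncb (-1.21). Of the ependymal markers 2 were lower (all genes 1.07%), Rarres2 and Dynlrb2 (-1.23), and all 10 lay below 0 in RNA. Dcn and Vtn, named above, are also fibroblast and pericyte markers. The part of other cells in the differences of matrix genes was not tested.

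The very highest and lowest differences belong to genes whose deposited columns do not add up. For 11942 genes (97.8%) the translation efficiency lay within 0.5 of footprints minus RNA at both times, but not for 54 (24.7%) of the 219 genes past 1. Wfdc17, a secreted antiprotease-like protein of activated macrophages, had the highest difference (5.44): its footprints were listed at 0.05 at 24 h and 5.49 at 48 h in the authors' deposited table, and its RNA at 7.11 and 9.76. The nearby Wfdc21 (0.59 and 5.65 in the authors' deposited table), the receptor Lilrb4a (0.16 and 4.60) and the bone matrix protein Ibsp (0.14 and 4.31) followed the same course. Dkk1, a secreted Wnt antagonist, had the lowest difference, from 5.63 to 0.23 in the authors' deposited table, with RNA at 5.06 and 3.16. In these genes a footprint value close to 0 stands beside an RNA value far from 0, and the difference depends on that single value. Tgtp2, Mx1, Cxcl9, Ccl17, Il18, Cilp2, H19, Apol9b, Adgre1 and Ces1f, given above, also belong to the genes whose columns do not add up, and Mx1, Tgtp2 and Cxcl9 were lower in RNA too (-2.06, -1.59 and -2.95). Just inside the threshold lay Fam110c (1.01) and Ddx60 (-1.01), and just outside it Ret (0.996) and Ikzf4 (-0.998).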

How the data were processed

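RNA and ribosome footprints were sequenced from untreated astrocytes and from astrocytes treated for 24 h or 48 h, with 3 batches in each of the 6 groups. Per the submitters' processing notes, the tools were TopHat2, an aligner, and featureCounts, a read counter, and the build was mm10; no versions were stated. The authors deposited log2 fold changes against untreated cells, per the file headers, as 1 value per gene for RNA, footprints and translation efficiency at each time. How they were normalized, filtered and combined over batches is stated in no label or header, so depth and precision are unknown and no test, SD or interval could be computed. The p-values that the authors deposited for gene sets were not used.

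The footprint difference was the 48 h value minus the 24 h value, and RNA and translation efficiency were treated in the same way (Python 3.11.15, pandas 2.3.3, numpy 2.4.6, matplotlib 3.10.9). A gene was called at a difference of at least 1, and lists were summarised by counts and medians. The counting and motif search steps were tested on simulated data, which checks the steps and says nothing on the genes. Of the gene IDs, 12201 of 12205 matched a table of gene names, 31 symbols damaged in the file were replaced, and 11721 genes had positions. Coordinates and promoters are from RefSeq (GRCm38.p6).

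The comparison, the 44 gene lists and the tests were chosen with earlier results of these data known, and 3 further lists were added after the values were seen. Named genes were, among genes whose columns add up within 0.5, the 15 highest and 15 lowest differences, the 5 largest in each class of course, the 3 highest and 3 lowest of each list, and 17 set names. Chosen outside this rule after their values were seen were Adgre1, Angptl4, Apol9b, Ccl17, Ces1f, Cilp2, Col2a1, Col4a1, Col4a2, Col4a5, Col4a6, Cxcl5, Ddx60, Dkk1, Dlk1, Eln, Fam110c, Gbp10, Gbp7, Gbp8, Gbp9, Gli1, H19, Ibsp, Igtp, Ikzf4, Il18, Irf9, Jak1, Lilrb4a, Matn3, Mx1, Mx2, Npy1r, Oas1a, Oas1b, Oas2, Oas3, Omd, Postn, Ret, Tgtp2, Tmem140, Tnfaip3, Tnfrsf9, Wfdc17 and Wfdc21. A few genes are not reported here. Alternatives tried were centring on the median of all genes, a threshold at a 1.5-fold change, footprints rebuilt from RNA and translation efficiency, leaving out genes past 5 in any column or genes whose columns do not add up, the mean in place of the median, and motifs on the gene strand only.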

Additional observations from a re-analysis of the deposited data

How the results depend on the processing

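No paired analysis was possible because the files hold 1 value per gene and comparison with the batches already combined, and for the same reason no batch could be left out. Centring on the median of all genes moved none of the counts, list medians or 285 named genes by more than the tolerance. The numbers of genes past the threshold depend on its position and on the quality of the columns. At a threshold of a 1.5-fold change 332 genes were higher and 404 lower in footprints, and 297 and 298 in RNA. With only genes whose columns add up within 0.1, 18 were higher and 41 lower in footprints, and 17 and 38 in RNA; with a tolerance of 0.5 there were 60 higher and 105 lower. Leaving out genes past 5 in any column left 58 higher genes. Rebuilding footprints from RNA and translation efficiency moved 51 of the 285 named genes by over 0.1, and moved the medians of MHC class II to -0.61, CC chemokines to -0.45 and A1 genes to -0.37. With columns adding up within 0.1, medians were -0.47 for MHC class I, -0.15 for CXC chemokines, 0.11 for cytokines, -0.17 for pan-reactive genes, -0.45 for A1 genes, 0.20 for microglia markers, -0.051 for endothelial markers, 0.028 for ependymal markers and 0.0089 for imprinted genes. The mean in place of the median was -0.11 for STAT, IRF and SOCS genes, -0.81 for CXC and -0.58 for CC chemokines, -0.11 for cytokines, 0.23 for complement, 0.036 for adhesion molecules, 0.033 for the pan-reactive list, -0.34 for the A1 list, -0.072 for the A2 list, -0.12 for collagens and matrix, -0.10 for Wnt and growth factor genes, -0.092 for contractile genes, 1.65 for microglia, 0.0061 for neuronal, -0.015 for fibroblast and pericyte and -0.32 for ependymal markers, -0.66 for imprinted genes, -0.74 for cartilage-type matrix, -0.95 for the 6 Col4 genes and -0.21 for the study's cytokine set. Median and mean thus differ in sign for STAT, IRF and SOCS genes, A2 genes, collagens and matrix, Wnt genes, contractile genes, fibroblast markers, resting astrocyte genes, G1 regulators and glycolysis genes. With columns adding up within 0.1, the median changed sign for cytokines, pan-reactive, resting astrocyte, antioxidant, contractile, imprinted and Col4 genes and for endothelial, fibroblast and ependymal markers. Rebuilt footprints changed the sign for cytokines and resting astrocyte genes. On the gene strand alone, ISRE letters were found in 1.85% of all genes, 9.28% of lower and 3.39% of higher genes, and, within induced genes, in 17.02% of lower genes, 3.96% of genes within 1 and 0% of higher genes. The cause of each of these shifts was not tested.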

Other observations

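The other gene lists had medians from -0.27 to 0.16, and single members could lie far from these. The Wnt, Notch, BMP and growth factor list ran from -5.39 (Dkk1, whose columns do not add up) to 0.92. The metalloproteinase list ran from -2.17 to 1.34. Medians were 0.14 for 28 adhesion molecules and immune receptors, -0.08 for 22 inflammasome and cell death genes, -0.01 for 35 early transcription factors, 0.04 for 23 regulators of G1, -0.11 for 34 ATF4 targets and tRNA synthetases, 0.06 for 32 chaperones and unfolded protein response genes, 0.05 for 29 glycolysis and hypoxia genes, -0.01 for 30 antioxidant and metal genes, 0.16 for 30 metalloproteinases and inhibitors, 0.03 for 47 Wnt, Notch, BMP and growth factor genes, 0.02 for 20 contractile genes and -0.27 for 3 MHC class II genes. The 10 defining astrocyte markers had a median of -0.10. Of the sets that the authors deposited, chosen by the study on these samples, 74 cytokine activity genes had a median of -0.06, 34 DNA replication genes 0.11, 67 apoptosis genes 0.05 and 75 oxidative phosphorylation genes -0.05.

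Several neural genes were among those higher at 48 h, each singled out after its values were seen. They do not stand for neural genes as a group. Of the 8 measured neuronal markers none was higher and 1 was lower, Sncb (-1.21, all genes 1.07% lower). Ryr3, a calcium release channel, differed by 1.72 and Spock3, a brain proteoglycan, by 1.88. Both stayed at least 1 below untreated cells at both times, with -1.28 and -1.22 at 48 h in the authors' deposited table. Scn7a, a sodium channel that senses salt, differed by 1.77. Draxin, an axon guidance protein, differed by 1.51, and Npy1r, a receptor for neuropeptide Y, by 1.37. Scn7a, Draxin and Npy1r lay above untreated cells at both times. Nr4a3, a nuclear receptor induced early in many responses, was lower at -1.52, and Pdgfb, a growth factor for pericytes and glial progenitors, at -1.67, while the receptor Pdgfra lay at 0.86.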
